A study of Mus musculus with 4 samples.

Results

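The D-type cyclins (Ccnd1, Ccnd2 and Ccnd3) and the kinases they bind (Cdk4 and Cdk6) were followed in mouse B cells and B-cell lymphoma lines. Members were all non-control probes of the arrays that carry 1 of these 5 gene names, and every such probe was used. This gave 9 probes of 41174 on the array, 5 gene names of 27745, and 18 spots per array. Ccnd2 and Cdk6 had 3 probes each, and Ccnd1, Ccnd3 and Cdk4 had 1 each. The Ccnd1 probe was printed in 10 spots and each of the others in 1.

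Progression from G1 into S phase is set in large part by these proteins. Extracellular signals raise the level of a D cyclin, which binds Cdk4 or Cdk6. The active kinase phosphorylates the retinoblastoma protein and its relatives, which release E2F transcription factors and so allow the genes of DNA replication to be transcribed. INK4 proteins bind Cdk4 and Cdk6 and keep D cyclins off them, and CIP/KIP proteins bind the assembled cyclin and kinase complexes. Resting and activated B cells use mainly cyclins D2 and D3, while cyclin D1 is best known in B cells from mantle cell lymphoma, where a translocation turns it on.

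Total RNA was measured on 4 single-colour mouse oligonucleotide arrays. Samples splenocyte 1 and splenocyte 2 were B220+ splenocytes, which are spleen cells selected for a B-cell surface marker, of C57BL/6N mice. Line 1 and line 2 were B-cell lymphoma lines that had been established independently of each other from mice carrying a dopamine receptor 3 transgene. All 4 samples are labelled female and C57BL/6N, and the promoter of the transgene, the ages of the mice, and whether the 2 splenocyte samples came from different animals are not given in the sources used here. Each line was on 1 array. The groups differ at once in being lymphoma or normal cells, cultured lines or spleen cells, and of transgenic origin or not, so these differences cannot be told apart. With nothing that marks the 2 samples of a group as separate animals or cultures, other than the 2 lines, the p-values below reflect the scatter among these 4 samples alone, part of which could be technical.

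Levels are given here as scaled signals, that is, the deposited processed intensity of a probe multiplied by 1 factor per array so that each array has the same 75th percentile as splenocyte 1 (1078). Before scaling, the 75th percentile was 514 on the array of splenocyte 2 and 1078, 1122 and 1315 on the others, so that array was the dimmest. Between 24974 and 27319 probes per array were well above background, and no spot of the members was saturated or marked as an outlier. All 9 probes were among the 27404 tested. Differences are log2 values of the lines minus those of the splenocytes, with the SE of a limma fit across all tested probes and the p-value adjusted by Benjamini-Hochberg over all of them. A probe was called at an adjusted p under 0.05.

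The lines expressed B-cell genes. Each marker was read at its tested probe with the highest mean. The 8 B-cell markers reported here (Ptprc, which encodes B220, Cd79a, Cd79b, Ms4a1, Pax5, Cd22, Blnk and Ebf1) were well above background on all 4 arrays. However, 6 of them were called lower in the lines and 2 (Cd79a and Ms4a1) were not called, with a median difference of -1.67. Their summed scaled signal was 752751 to 968321 in splenocytes and 448790 to 462640 in the lines. At other probes of these genes the differences ran from -8.44 (Ebf1) to 0.37 (Ms4a1). Of 11 tested markers of macrophages, monocytes and neutrophils 9 fell and 1, Adgre1, rose, of 7 NK-cell markers 6 fell and 1 rose, and of 9 T-cell markers 4 fell and 3 rose. Their summed scaled signals were 11778 to 17856, 1564 to 1625 and 15416 to 17635 in splenocytes, and 38341 to 38797, 478 to 621 and 15341 to 17538 in the lines. The near-equal T-cell sums came from unlike genes. Cd2 and Lck were brightest in splenocytes and fell (-3.29 and -1.99), while Cd3g and Cd5 were brightest in the lines and rose (4.36 and 2.56). Cd8b1, counted as higher, had its other probe called lower (-7.31), and Cd4, not called, had its other probe called higher (2.26). The sum of the macrophage list in the lines was carried by Adgre1 (log2 difference 4.23), while Lyz1, Lyz2 and S100a8 were not well above background in either line. Dendritic-cell markers went the other way, with 4 of 8 higher, 1 (Itgax) lower and a median of 1.19. Of 6 plasma-cell markers 3 rose and 1 fell, of 5 erythroid markers 3 fell, and neither of 2 megakaryocyte markers was called. Of 7 markers of stroma and endothelium 3 rose and 2 fell, and Pdgfrb and Col1a1, which were not well above background in either splenocyte sample, were at least 41.9-fold and 8.44-fold higher in the lines. These bounds set the mean of the lines against the higher of the probe's own signal and the lowest signal counted as well above background on each splenocyte array. Summed scaled signals of these 5 lists, in the same order, were 139742 to 172018, 58814 to 77947, 6177 to 6222, 88.4 to 90.5 and 1759 to 1827 in splenocytes, and 144868 to 146335, 26623 to 48466, 1031 to 2620, 80.5 to 96.1 and 939 to 1009 in the lines. The sum of the dendritic-cell list was carried by Ly6d in both groups. Its log2 signals were 6.93 and 7.24 in splenocytes and 6.96 and 6.98 in the lines, and it was not called (-0.11). The part of such cells in the values below was not tested.

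The comparison of lines and splenocytes separated the 5 genes. Cdk4, and Cdk6 at 2 of its 3 probes, were several times higher in both lines, Ccnd2 was 1.73-fold to 2.13-fold higher at its 3 probes, of which 2 passed the test, the single Ccnd3 probe did not differ beyond its error, and Ccnd1, dim in all samples, was 4.34-fold lower. Of the 9 probes, 5 were called higher, 1 was called lower and 3 were not called. These counts stand against a wide background. Of all tested probes 17755 (64.8%) were called, 8860 (32.3%) higher and 8895 (32.5%) lower in the lines. Both lines lay above both splenocyte samples at 6 of the 9 probes and below them at 1, while 42.7% of all tested probes had both lines above and 42.9% had both below. Log2 differences of all tested probes ran from -1.03 to 0.93 between the 25th and the 75th percentile and from -3.78 to 2.75 between the 5th and the 95th. In bulk RNA, fewer cells of a type and less RNA per cell cannot be told apart in any of these differences.

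**Figure D1:**
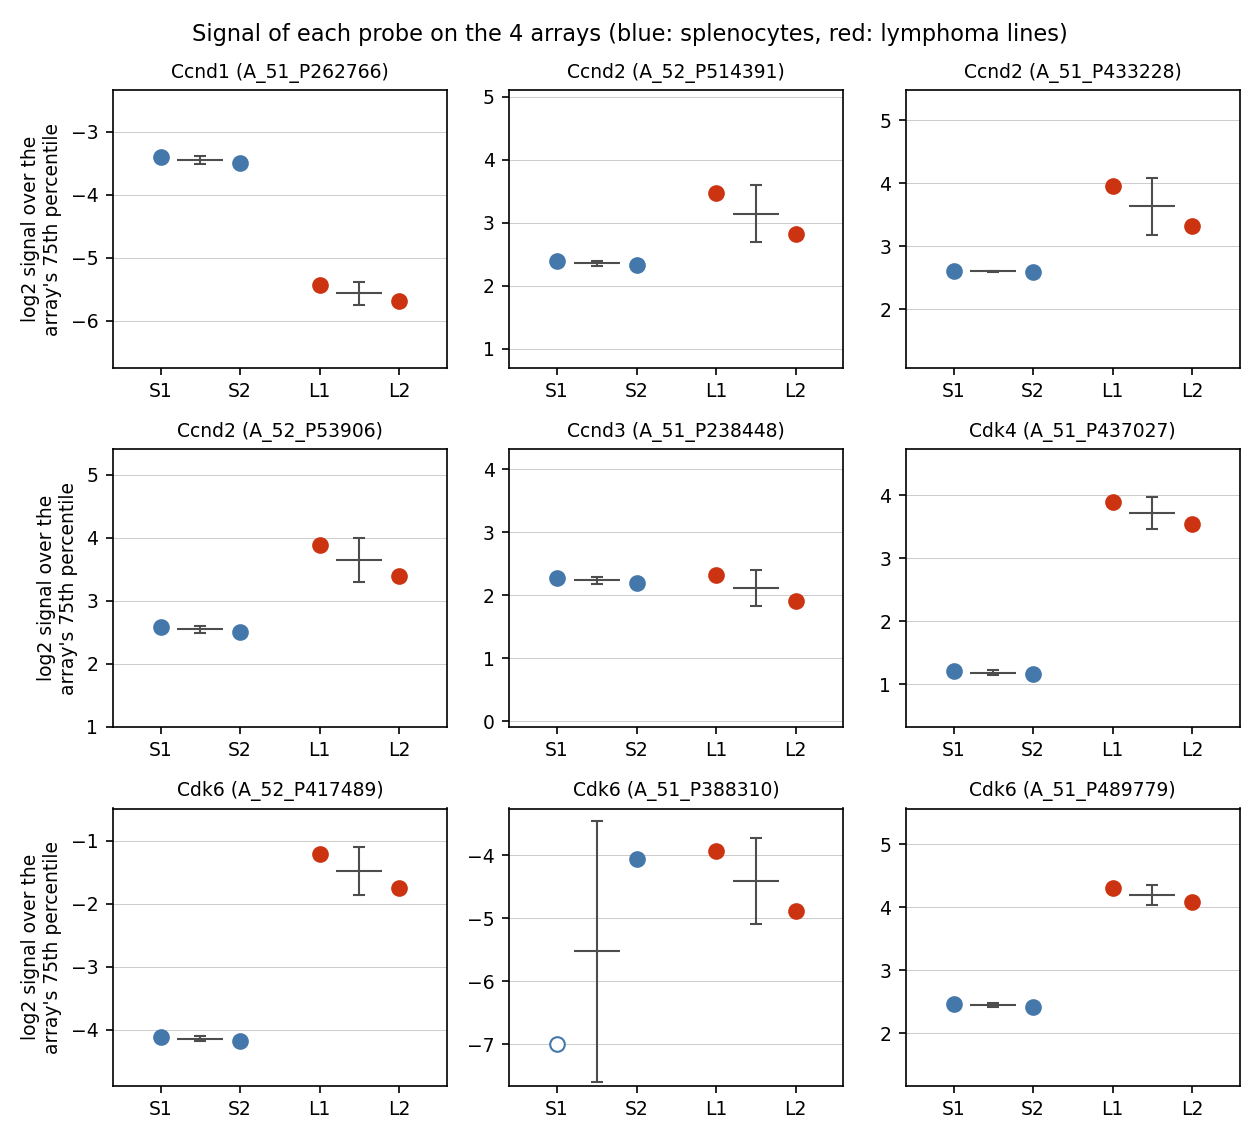
Log2 scaled signal of each of the 9 probes on the 4 arrays (S1 and S2, splenocytes; L1 and L2, lymphoma lines), relative to the 75th percentile of its array, with the group mean and SD of 2 samples as the bar; an open point is a probe not well above background. Vertical axes cover different ranges, and both lines sit above both splenocyte samples in 6 panels and below them in the Ccnd1 panel.

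Cdk4 encodes the kinase that pairs with all D cyclins. Its probe (A_51_P437027, NM_009870; mm8 chromosome 10, 126467860 to 126467919, plus strand) had scaled signals of 2501 and 2401 in the splenocytes, 16055 in line 1 and 12506 in line 2. The splenocyte samples lay close together, and both lines lay far above them. The rise was 5.78-fold (log2 difference 2.53 ± 0.19, SE; adjusted p = 0.000832 by limma, n = 2 against 2). Against the splenocyte mean line 1 was 6.55-fold and line 2 5.10-fold higher. Only 6.06% of all tested probes had a higher log2 difference. The value ran from 2.35 to 2.94 over 17 alternative settings and leave-outs and kept its call in each.

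Cdk6 encodes the other kinase partner of the D cyclins. Its brightest probe (A_51_P489779, from cDNA AK030810; chromosome 5, 3535293 to 3535352, plus strand) read 5963 and 5773 in the splenocytes and 21367 and 18293 in lines 1 and 2. The groups were well apart, with a 3.37-fold rise (1.75 ± 0.16; adjusted p = 0.00136 by limma). The probe A_52_P417489 (NM_009873) lies further upstream in the gene. Its listed interval, 3479226 to 3521510, spans 42285 bases, more than the 60 bases of a probe, so the probe crosses at least 1 intron. It was dim in splenocytes, at 62.1 and 59.8, and read 467 and 320 in lines 1 and 2, again with no overlap. That rise was 6.34-fold (2.66 ± 0.23; adjusted p = 0.00122), and 5.43% of tested probes had a higher difference. With a normexp background correction, which models background from the spot surroundings and adds an offset, the difference at this dim probe was 1.61, with the call kept (adjusted p = 0.00378).

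The remaining Cdk6 probe (A_51_P388310, NM_009873; 3527675 to 3527734) gave no usable comparison. It read 8.49 in splenocyte 1, where it was not well above background, 64.8 in splenocyte 2, 71.1 in line 1 and 36.5 in line 2, so the groups overlapped. The difference was 1.12 ± 1.05 (adjusted p = 0.390 by limma). The gap of 2.93 log2 units between the 2 splenocyte arrays was wider than that of 99.8% of tested probes. Without splenocyte 1 the difference was -0.35 (adjusted p = 0.576), and without splenocyte 2 it was 2.58 (adjusted p = 0.0187). The 3 Cdk6 probes thus gave unlike values, and the within-array distance between the 2 called ones was itself 0.91 log2 units smaller in the lines. The brightest lies 7558 bases beyond the nearest other Cdk6 probe. Which transcripts each probe reads was not analysed here.

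Ccnd2 encodes cyclin D2, the D cyclin that mature B cells induce on stimulation through their antigen receptor. The 3 probes carry NM_009829 and lie on the minus strand of chromosome 6, over 19062 bases from the first to the last. At the brightest (A_51_P433228, 127104788 to 127104847) the scaled signal was 6574 and 6511 in splenocytes, 16679 in line 1 and 10741 in line 2. At A_52_P53906 (127114297 to 127114356) it was 6475, 6135, 15958 and 11327 in the same order. At A_52_P514391 (127095295 to 127095354) it was 5623, 5409, 11908 and 7619. All 3 probes had the same order of samples, with line 1 highest, line 2 next and the splenocytes together at the bottom.

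The rise was 2.05-fold at the brightest Ccnd2 probe (1.03 ± 0.26; adjusted p = 0.0228 by limma) and 2.13-fold at A_52_P53906 (1.09 ± 0.22; adjusted p = 0.0121). At A_52_P514391 the difference was 0.79 ± 0.26 and just missed the threshold (adjusted p = 0.0512). Of all tested probes 22.9% had a higher difference than the brightest Ccnd2 probe. The calls rested on few arrays. At the brightest probe the difference was 1.04 without splenocyte 1 (adjusted p = 0.0797) and 1.03 without splenocyte 2 (adjusted p = 0.0846). At A_52_P53906 it was 1.05 without splenocyte 2 (adjusted p = 0.0594). At A_52_P514391 it was 0.47 without line 1 (adjusted p = 0.0793), and without line 2 it was 1.11 and passed (adjusted p = 0.0112).

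Ccnd3 encodes cyclin D3, which proliferating pre-B cells and germinal centre B cells depend on. Its probe (A_51_P238448, NM_007632; chromosome 17, 47062509 to 47062568, plus strand) read 5212 and 4965 in splenocytes, 5379 in line 1 and 4063 in line 2. Line 1 was highest and line 2 lowest, so the lines lay on both sides of the splenocytes. The difference was -0.12 ± 0.20 (adjusted p = 0.612 by limma), with a 95% interval of -0.65 to 0.40. This interval does not show equal levels, but it leaves out a rise of the size seen for Cdk4 or for the called Cdk6 probes. The sign turned to 0.29 when arrays were scaled to their median (adjusted p = 0.341) and to 0.08 without line 2 (adjusted p = 0.682).

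Ccnd1 encodes cyclin D1. Its probe (A_51_P262766, S78355; chromosome 7, 144739658 to 144739717, minus strand) was dim, with scaled signals of 102 and 95.5 in splenocytes and 24.9 and 20.9 in lines 1 and 2. The lines were below both splenocyte samples, and the difference was -2.12 ± 0.17 (4.34-fold lower; adjusted p = 0.000967 by limma, n = 2 against 2). The probe was nevertheless well above background in all 10 spots of all 4 arrays. Its mean processed signal was 12.0 and 6.12 times the lowest signal counted as well above background on the splenocyte arrays, and 3.12 and 2.36 times on those of lines 1 and 2. Before subtraction the spots had a mean brightness of 150 and 94.5 in splenocytes and 77.9 and 77.3 in the lines, over a local background of 43.9 to 45.5. The size of the fall therefore depends on how background is taken off, and with normexp it was -1.23 (adjusted p = 0.00415).

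The 10 Ccnd1 spots show the technical spread within an array, which is not a spread between samples. On the unscaled processed signal they averaged 102 ± 7.02 (SD, 10 spots) in splenocyte 1, 45.7 ± 3.77 in splenocyte 2, 26.2 ± 4.75 in line 1 and 25.6 ± 2.50 in line 2. One spot of line 1 read 39.3, and the next highest of that array read 27.0. After scaling, the spots ran from -3.76 to -3.23 log2 units over both splenocyte arrays and from -5.94 to -4.83 over both lines. No spot of a line reached the lowest spot of a splenocyte array.

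**Figure D2:**
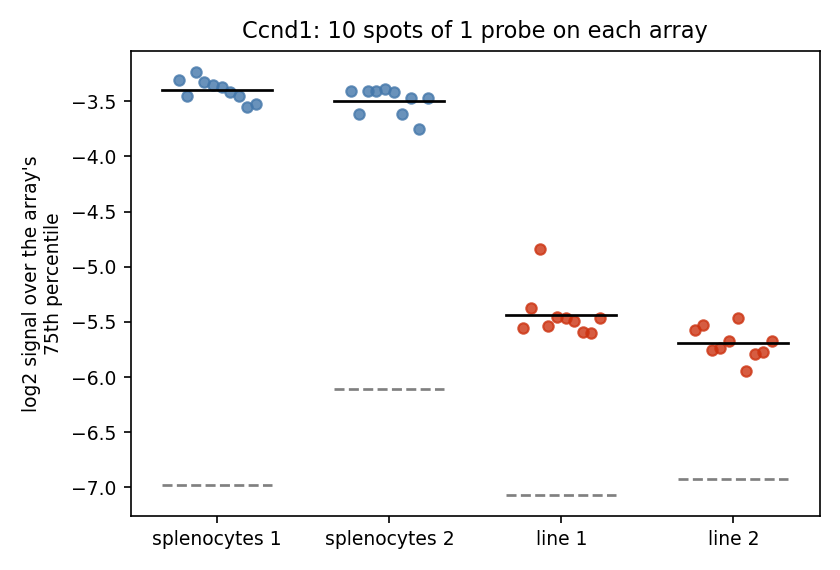
The 10 spots of the Ccnd1 probe on each array, as log2 signal over the 75th percentile of the array, with the mean of the spots as a solid bar and the lowest signal counted as well above background as a dashed bar. Spots of the splenocyte arrays lie between -3.76 and -3.23 and those of the lines between -5.94 and -4.83, nearer to the dashed bars.

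**Figure D3:**
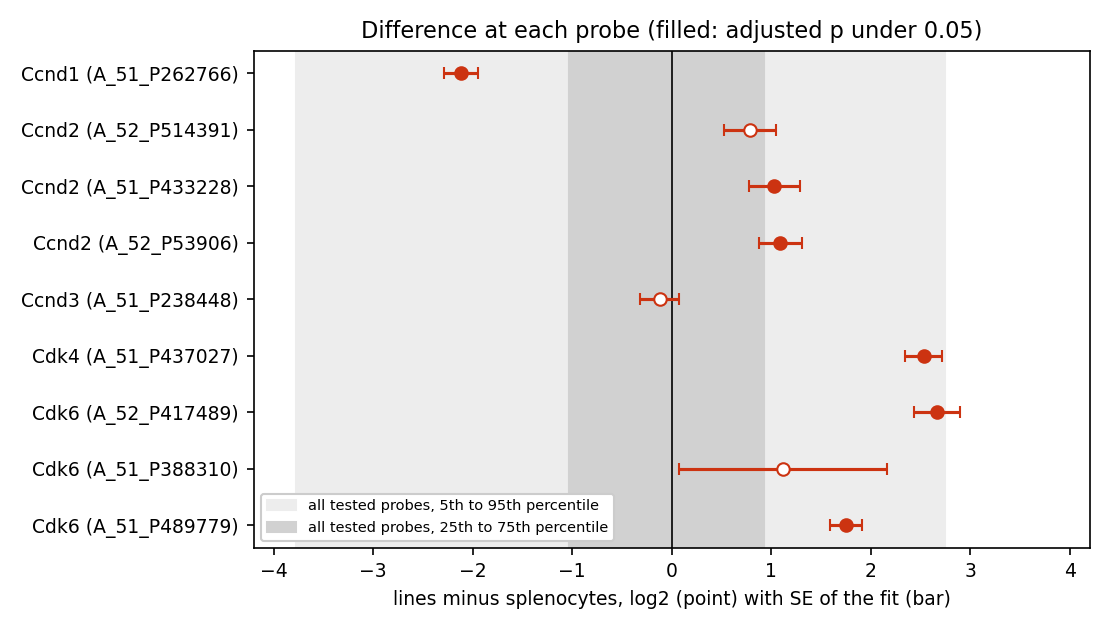
Log2 difference, lines minus splenocytes, at each probe (point) with the SE of the limma fit (bar) and filled where the adjusted p was under 0.05; shading marks the spread over all 27404 tested probes. Cdk4 and the Cdk6 probe A_52_P417489 lie near the 95th percentile of all probes (2.75), the Ccnd2 probes near the 75th (0.93) and Ccnd1 between the 5th and the 25th.

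Line 2 was lower than line 1 at all 9 probes, by 0.22 (Cdk6 A_51_P489779) to 0.96 (Cdk6 A_51_P388310) log2 units. These probes belong to only 5 genes. The share of all tested probes at which line 2 was lower was not determined, so this direction is not shown to be particular to the members. Over all tested probes the median size of the gap between the lines was 0.23. The gap was 0.49 to 0.64 at the Ccnd2 probes, which 78.9% to 85.6% of tested probes did not reach, and 0.36 for Cdk4, which 67.8% did not reach. No line has a second array, so these gaps have no replicate check.

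Differences between 2 probes of the same array do not depend on how arrays are scaled against each other. Of 10 gene pairs and 6 pairs of probes of 1 gene, 16 in all, each was tested by an exact two-sided permutation test over the 4 arrays. The smallest possible p of this test is 0.333, so none could pass, and the lowest p obtained after Benjamini-Hochberg adjustment was 0.410. Relative to Ccnd3, the signal of Cdk4 was 6.29-fold higher in the lines than in the splenocytes, a log2 shift of 2.65 with SDs of 0.0315 (lines) and 0.00788 (splenocytes) within groups. Relative to Ccnd3, Ccnd2 was 2.23-fold higher, with within-group SDs of 0.163 and 0.0398. The Cdk4 shift exceeded that of Cdk6 at its brightest probe 1.72-fold and that of Ccnd2 2.83-fold. At the other called Cdk6 probe the log2 difference (2.66) was above that of Cdk4 (2.53), so the order of these kinases depends on the probe. The ratio of Ccnd1 to Ccnd2 fell furthest among the pairs of cyclins, 8.87-fold. All of these shifts were larger than the spread within either group, which is an SD of 2 samples. Such separation is common here, since 42.7% of all tested probes had both lines above both splenocyte samples and 42.9% had both below. Shifts between pairs of other probes were not determined.

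Calls of the members moved little with the scaling. Scaling to the array median in place of the 75th percentile added 0.41 to the median of all tested probes and changed the share of called probes that were higher in the lines from 49.9% to 64.0%. Cdk4 then read 2.94, and Ccnd1 -1.71, so both stayed on their side of that shift. Over all alternatives that kept every probe, 4 to 6 of the 9 were called higher, and 1, Ccnd1, was called lower in each.

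**Figure D4:**
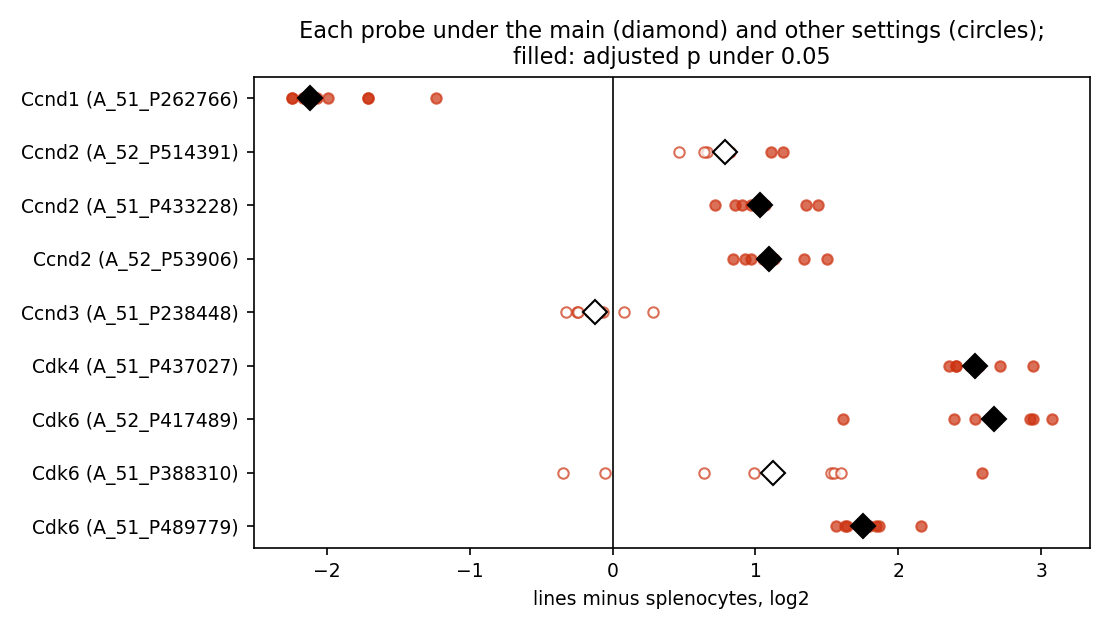
Log2 difference of each probe under the main setting (diamond) and under the alternative settings and leave-outs (circles), filled where the adjusted p was under 0.05. Ccnd1, Cdk4 and 2 Cdk6 probes are filled throughout, Ccnd3 crosses 0 without a call, and the Cdk6 probe A_51_P388310 runs from -0.35 to 2.58.

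The promoters of the kinases are shown because Cdk4 and Cdk6 were the members that rose most. Promoter sequences from RefSeq (GRCm38.p6, 250 bases before to 50 after the gene start) matched 3 of the 5 genes, with 2 starts for Ccnd3. The letters CACGTG, known as an E-box, read the same on both strands and are in capitals. The sequences run from 250 bases before the start up to it, chr10:127063285-127063534 for Cdk4 and chr5:3343643-3343892 for Cdk6, both on the plus strand.
Cdk4: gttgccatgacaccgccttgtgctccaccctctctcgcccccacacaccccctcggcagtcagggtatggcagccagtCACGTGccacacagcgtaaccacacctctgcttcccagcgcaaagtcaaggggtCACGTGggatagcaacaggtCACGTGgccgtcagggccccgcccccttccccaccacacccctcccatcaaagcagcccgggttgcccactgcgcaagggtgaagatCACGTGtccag
Cdk6: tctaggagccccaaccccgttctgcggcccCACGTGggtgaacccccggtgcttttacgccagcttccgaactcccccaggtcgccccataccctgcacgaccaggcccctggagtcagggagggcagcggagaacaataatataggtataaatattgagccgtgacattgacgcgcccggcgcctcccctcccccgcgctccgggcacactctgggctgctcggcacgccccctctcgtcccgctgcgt

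The Cdk4 promoter held 4 matches to CACGTG, which began 172, 118, 98 and 11 bases before the start. The Cdk6 promoter held 1, 220 bases before the start, and neither Ccnd3 start had one. Of 32851 promoters of the same length 2349 (7.15%) held at least 1 match, and 8 entries (0.0244%) held 4 or more. The E2F-site letters TTTGGCGC and TTTCCCGC, searched on both strands, were in none of these promoters of the members and in 0.514% and 1.07% of all promoters. The letters GGGCGG, searched on both strands, matched 3 times in the Cdk4 promoter, 2 times at each Ccnd3 start and not in that of Cdk6, against 35.7% of all promoters with at least 1. These are letter matches in a fixed window and not measured binding.

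Genes near the members did not all move with them. Within 500 kb of the probe, Ccnd1 had 5 tested genes, of which none was called, and Cdk6 had 12, of which 1 rose, 6 fell and 5 were not called, with a median of -0.72 and none above Cdk6. Around Cdk4, 15 of 33 tested genes rose, 8 fell and 10 were not called, with a median of 0.04, and 6 lay above Cdk4. Ccnd2 had 9 (4 rose, none fell) and Ccnd3 15 (8 rose, 2 fell). Of all genes, likewise read at the tested probe with the highest mean, 30.7% were called higher and 32.7% lower. The neighbour with the largest fall near Cdk4 was Tspan31, a tetraspanin gene on the opposite strand whose probe (126470259 to 126470319) lies 2339 bases from the Cdk4 probe. Tspan31 was 278-fold lower (-8.12 ± 0.16; adjusted p = 9.44e-05 by limma), with log2 signals of 3.27 and 3.35 in splenocytes and -4.70 and -4.92 in the lines. With normexp it was 119-fold lower. It was named after its values were seen.

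Other genes of the pathway were read at the tested probe with the highest mean, in lists grouped by role. On this scale 5623 of 18316 genes (30.7%) were called higher and 5994 (32.7%) lower, with a median difference of -0.05. INK4 proteins are the inhibitors specific to Cdk4 and Cdk6. All 4 of their genes were called, 3 higher and 1 lower. Cdkn2b (p15) had log2 signals of -4.92 and -5.03 in splenocytes and 2.77 and 3.01 in the lines, a 232-fold rise (7.86 ± 0.17; adjusted p = 0.000101). Cdkn2a, whose locus encodes p16 and the p53 regulator ARF, had -5.01 and -4.86 in splenocytes and 2.0 and 2.33 in the lines, a 136-fold rise (7.09 ± 0.19; adjusted p = 0.000127). Both probes were dim in splenocytes, and with normexp the folds were 68.9 for Cdkn2b and 41.9 for Cdkn2a, with the calls kept. Which of its 2 products the Cdkn2a probe reads was not analysed here. Cdkn2c (p18) rose 2.14-fold, and Cdkn2d (p19) fell, 2.84-fold. Both kinases and the inhibitors p15 and p18 thus had higher RNA in the same 2 lines.

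Of the 3 CIP/KIP genes, Cdkn1b (p27) fell, 2.03-fold, and so did Cdkn1c (p57), with log2 signals of -3.08 and -3.09 in splenocytes and -6.25 and -6.78 in the lines (-3.43 ± 0.23; adjusted p = 0.000657 by limma). Cdkn1c was well above background in only 1 of the lines, so the size of its fall is uncertain, and with normexp it was -1.60 (3.03-fold lower). Cdkn1a (p21) rose 3.37-fold (1.75 ± 0.36; adjusted p = 0.0131 by limma), a call that was lost without splenocyte 2 (1.55, adjusted p = 0.0554) and with normexp (0.73, adjusted p = 0.0738). The median of the 3 was -1.02. It became 0.37 when only probes above background on all arrays were kept, since Cdkn1c then dropped out.

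The pocket proteins, which D-cyclin kinases phosphorylate, were all called, with folds under 2. Rb1 rose 1.44-fold (0.52 ± 0.14; adjusted p = 0.0304 by limma), Rbl1 (p107) rose 1.58-fold, and Rbl2 (p130) fell, 1.73-fold. These 3 calls were weak. Each of them was lost in 5 to 8 of the 17 alternatives, with adjusted p-values of up to 0.161, 0.130 and 0.180. Rb1 and Rbl1 lost theirs without any 1 of the 4 arrays, and Rbl2 without either splenocyte sample or without line 1.

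Genes that act downstream of the D-cyclin kinases were higher in the lines. Of 25 E2F target genes, 22 rose, none fell and 3 (E2f2, Cdt1 and Slbp) were not called, with a median of 1.83. Under quantile normalization Cdt1, which licenses replication origins, was called lower (-0.54; adjusted p = 0.0261). Ccna2 (cyclin A2) rose most in that list, 10.3-fold, with log2 signals of 1.58 and 1.05 in splenocytes and 4.76 and 4.61 in the lines. Ccne1 and Ccne2, the E cyclins that activate Cdk2 after the D cyclins, rose 6.80-fold and 4.91-fold (Ccne2 2.71-fold with normexp). The list holds 3 cyclins that are also in the next list.

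Among 19 tested cyclins outside the D class, 9 rose, 6 fell and 4 were not called, with a median of 0.44. This median was -0.04 with the mean over the probes of each gene. Ccnt1, not called, had its other probe called lower (-3.68), and Ccni, not called, had 1 of its 5 probes called lower. Ccnb1, the mitotic cyclin B1, rose most (10.9-fold), and Ccnt2, a cyclin of transcription elongation, fell most (4.23-fold). Of 15 other cyclin-dependent kinases 7 rose, 7 fell and 1 was not called, with a median of 0.04, whose sign was negative under 5 of the 17 alternatives. These counts depend on the probe read. Cdk12, counted as higher, had 2 of its 5 probes called lower (down to -3.36). Cdk16, counted as lower, had 1 called higher (2.59), and Cdk11b, not called, had 1 called lower (-3.31). Cdk1, the mitotic kinase, rose 11.4-fold (7.48-fold as the mean over its probes), and Cdk2, the partner of the E and A cyclins, 2.36-fold, while Cdk19, a kinase of the Mediator complex, fell most (6.72-fold). With splenocyte 1, splenocyte 2 or line 1 left out, 3 of the 15 fell in place of 7.

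The CDK-activating kinase phosphorylates Cdk4 and Cdk6 in complex with a D cyclin, and the chaperone Hsp90 with Cdc37 folds newly made Cdk4. Of 6 such genes 4 rose and 2 were not called, with a median of 0.82, and Ccnh rose most (1.99-fold). Without splenocyte 1, 2 of the 6 rose, and without splenocyte 2, 1 did. Of 13 genes that act on the turnover of D cyclins 6 rose, 3 fell and 4 were not called, with a median of 0.55, and 3 rose without either splenocyte sample. Usp2, a deubiquitinase that stabilises cyclin D1, rose 15.5-fold (5.56-fold with normexp). Ambra1, the substrate receptor through which D cyclins are ubiquitinated, had log2 signals of 2.0 and 2.10 in splenocytes and -6.10 and -6.15 in the lines at its brightest probe, 289-fold lower, or 61.0-fold with normexp. At its other probe it was 7.27-fold lower, and the mean of both probes was 45.8-fold lower. Cul1, counted as lower in this list, had 1 other probe called higher (1.91).

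Of 19 tested transcription factors that act on genes of D cyclins, Cdk4 or Cdk6, 13 fell, 3 rose and 3 were not called, with a median of -1.09. Stat5b, counted as lower, also had 1 probe called higher (1.07). Ctnnb1, counted as higher, also had 1 called lower (-1.54). Nfkb1, counted as not called, had 3 of its 4 probes called lower (down to -3.66). Fos, an immediate-early gene, fell most, 1499-fold (407-fold with normexp), and Myb, a factor of proliferating progenitors, rose most, 14.4-fold (9.30-fold as the mean over its probes). Myc, which is known to act on the Cdk4 gene, was looked at after its values were seen. At its brightest probe its log2 signals were 5.13 and 5.07 in splenocytes and 2.91 and 2.24 in the lines, 5.75-fold lower (-2.52 ± 0.27; adjusted p = 0.00198 by limma), and all 3 Myc probes lay between -2.52 and -2.47.

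**Figure D5:**
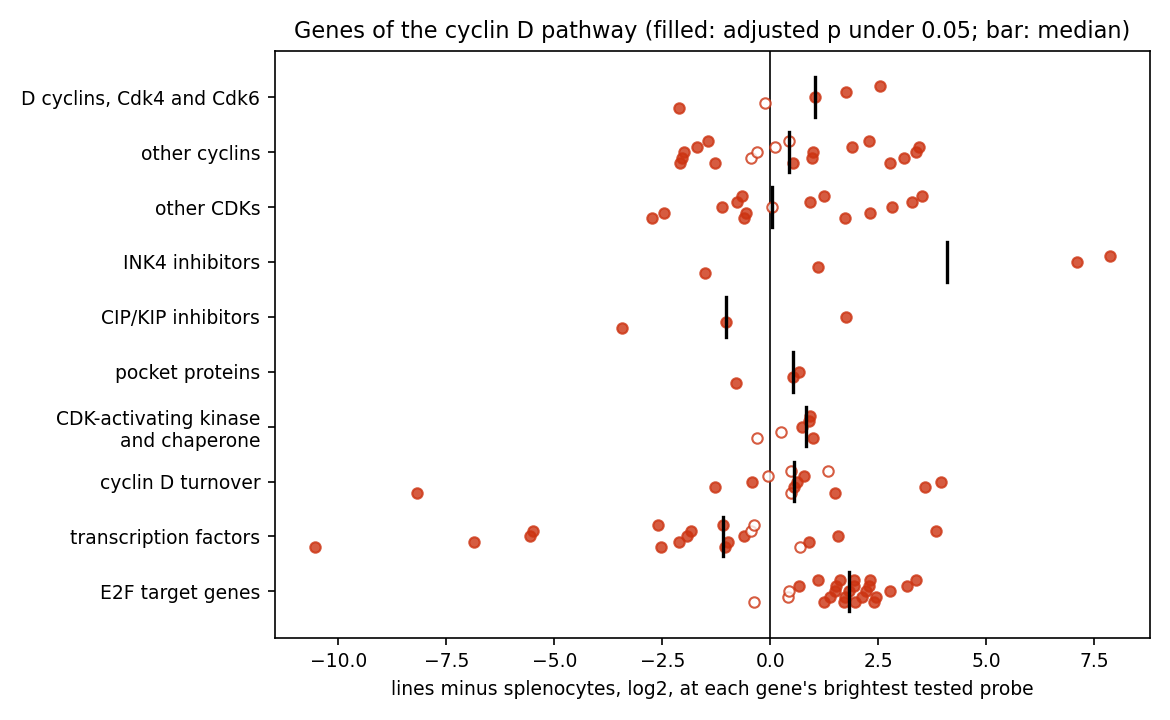
Log2 difference, lines minus splenocytes, of each tested gene of the pathway lists at its brightest tested probe, filled where the adjusted p was under 0.05, with the list median as a bar. Of the E2F target genes 22 of 25 are filled and to the right of 0, the INK4 genes Cdkn2a and Cdkn2b lie furthest right, and 13 of 19 transcription factors are filled and to the left.

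The genes with the most similar pattern to each member over the 4 arrays were found by the root mean square distance between log2 values centred on their own means, among 15226 genes that every array detected well above background. Nearest to Ccnd1 were TC1636111 (distance 0.0194) and Pik3c2b (0.0307), and nearest to Ccnd2 were Rbmx (0.0146) and W15861 (0.0174). Nearest to Ccnd3 were Azin1 (0.00940) and Rrp7a (0.0193), nearest to Cdk4 were Cct6a (0.0339) and LOC673433 (0.0394), and nearest to Cdk6 were Zfp940 (0.0107) and Rbbp7 (0.0123). Such closeness is common with 4 arrays, since 272 genes lay within 0.2 of Ccnd1, 296 of Cdk4, 846 of Ccnd2, 865 of Cdk6 and 1854 of Ccnd3.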

How the data were processed

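The authors read 4 array images with Agilent Feature Extraction, whose version is given as 9.5.1.1 in the file headers and 9.5 in the submitters' processing notes. The deposited processed signal is an intensity corrected for background and spatial trend, with no normalization between arrays per the file headers; the raw mean of each spot and its local background are likewise deposited as intensity, and flags of 0 or 1 mark outlier, saturated and bright spots, per the file headers. Values in the deposited matrix equal this intensity times an array factor (1, 2.10, 0.961 and 0.820), as read from the values. Probe coordinates are those of the array annotation (mm8).

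Spots flagged as outliers on any array (403) were left out, the others averaged per probe, and log2 of the processed signal minus log2 of the 75th percentile of the array was taken. Tested were probes that 2 or more arrays detected well above background, with limma 3.58.1 (lmFit, eBayes; two-sided) in R 4.3.3 (with version 1.17.8 of data.table). Residual degrees of freedom were 2 and prior ones 2.42. In simulated data of the same 27404 probes, 44 of 100 changed 4-fold and 89 of 100 changed 16-fold were called, and 8 of all 141 calls were false. Only those probes were changed there, a far smaller share than the 64.8% called in the data. These rates therefore do not carry over to the data. The correlation of deviations, not of the signals themselves, between same-numbered samples was 0.0113 over 2 pairs, so numbers were not taken to pair them. Folds are ratios of fitted means.

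Named are the 5 genes at every probe, the largest rise and fall called in each pathway list, the INK4, CIP/KIP and pocket protein genes, Ccna2, Ccne1, Ccne2, Cdk1 and Cdk2, and the 2 nearest genes per member. Members and lists were chosen with earlier results of these data known. The number of arrays limits the precision. A marker gene of the planned lists is not reported here.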

Additional observations from a re-analysis of the deposited data

How the results depend on the processing

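Ccnd1 (-2.24 to -1.23), Cdk4 (2.35 to 2.94) and the Cdk6 probes A_51_P489779 (1.57 to 2.16) and A_52_P417489 (1.61 to 3.07) kept direction and call in all alternatives run for them. Ccnd2 lay near the threshold. Its probe A_51_P433228 was 1.03 with no filter on dim probes (adjusted p = 0.0543 by limma), and 0.72 to 1.35 with 1 array left out; A_52_P53906 was 0.85 to 1.34 with 1 left out. A_52_P514391 passed with median scaling (1.20), normexp (0.82), probes above background on all arrays (0.79), an eBayes trend (0.79) and the replicate block (0.79; adjusted p = 0.0487), and was 0.47 to 1.11 with 1 array left out. The replicate block changed no other call of a member and turned Rb1 to an adjusted p of 0.0672. Ccnd3 was 0.29 with median scaling and -0.32 to 0.081 with 1 array left out. The Cdk6 probe A_51_P388310 was -0.056 with normexp and -0.35 to 2.58 with 1 left out. With 1 array left out, the lone sample is assumed to vary like the other group. The count of probes higher in the lines was 5610 with 1 probe per gene and 5580 with the mean over a gene's probes, where fewer features are tested. The other causes were not tested. A slide block was not run, because all 4 arrays were on 1 slide. Low signal over background limits Ccnd1 and 2 Cdk6 probes.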
